A study of Leucoraja erinaceus with 6 samples.

Results

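Receptors, the ligands that act on them and proteins of the extracellular matrix were examined in embryonic spinal cord of the little skate (Leucoraja erinaceus). Rows were taken by words in their protein description, such as receptor, frizzled, growth factor, ephrin, netrin, collagen, laminin, integrin and tetraspanin. This gave 69 of 7080 rows, or 69 of the 1577 rows with a description. A further 3 rows were left out by a second word list, and these name a nerve growth factor receptor, a GDNF family receptor and a cation channel. The words also catch proteins inside the cell, such as non-receptor phosphatases, so each member was given a role. There were 18 cell-surface receptors, 9 ligands, 5 matrix proteins, 7 adhesion proteins, 5 nuclear receptors, 6 receptors of intracellular transport, 15 adaptors or intracellular partners and 4 others. AHR, a ligand-bound transcription factor of another family, was counted with the nuclear receptors. The receptors of intracellular transport were grouped by description and include REEP5, a receptor accessory protein, and GOSR2, part of a SNAP receptor complex.

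Spinal cord cells were sorted by hand from wild type embryos of stage 30 to 31, and their RNA was sequenced. Motor neurons of the pectoral fin gave 3 libraries (replicates 1, 2 and 3), and spinal cord cells of the tail gave 3 (replicates 1, 2 and 4). The labels name no treatment. Cell class and body level both differ between the groups and cannot be told apart. Whether replicates stem from different embryos is not stated, so a p-value here measures the spread between libraries alone, which may be technical. Levels are in TPM, a share of all transcripts scaled for their length, and are listed in the order of the replicate numbers. In bulk samples, fewer cells of a type and less RNA per cell cannot be told apart.

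In the developing spinal cord, secreted and membrane-bound ligands such as Wnts, fibroblast growth factors, netrins and ephrins carry positional and guidance signals, which a cell reads through the receptors it displays. Laminins and collagens build the basement membranes and tissues that axons cross, and adhesion molecules hold neurites to these surfaces and to each other. Motor axons bound for a limb are known to read several of these signals on their way to muscle.

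Most members were low. The mean TPM over all 6 libraries had a median of 1.48 among the members and 2.10 among the described rows, and COL2A1, CXADR and NCAM1 were the 3 members with a mean of at least 10 TPM. Summed over the members, the pectoral libraries held 138 (replicate 1), 226 and 115 TPM, and the tail libraries 326 (replicate 1), 129 and 81.0 TPM. The sums ranged from 0.167% of the TPM of all rows in tail replicate 4 to 0.439% in tail replicate 1, so the groups overlapped. All listed rows together held 48450 TPM in tail replicate 4, the lowest total, and 74220 TPM in tail replicate 1, the highest. The percentages are therefore shares of the listed rows and not of all transcripts.

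Libraries differed in how many rows they list at 0, which touches every comparison. Pectoral replicate 1 listed 1 member at 0, and pectoral replicates 2 and 3 listed 22 and 23. Tail replicates 1, 2 and 4 listed 14, 21 and 42. Pectoral replicate 1 was above 0 in 7075 of all 7080 rows, and 3 members (FGF10, FGF22 and TACR1) were above 0 in that library alone. Read depth is unknown, so an entry at 0 is given as listed and not as absence. Motor neuron markers (ISL1, ISL2, CHAT and SLC18A3, 4 of the 6 genes listed) summed to 7.99 to 11.6 TPM in the pectoral libraries and to between 2.91 and 5.96 TPM in the tail libraries. ISL1 had TPM of 1.63, 1.22 and 4.81 in the pectoral libraries against 0.249, 0.0563 and 0 in the tail libraries. ISL2 had TPM of 3.43, 0.956 and 0.328 against 0.139, 0 and 0. Both were higher in every pectoral library, as were 4.18% of all rows with at least 1 TPM in 3 or more libraries. ISL1 reached 1 TPM in pectoral libraries only, so this filter fixed its separation in advance. ISL2 reached 1 TPM in pectoral replicate 1 alone and fell below the filter. CHAT had TPM of 2.61, 3.715 and 0 against 2.85, 2.81 and 0.5215, with overlapping groups. SLC18A3 overlapped too, with TPM of 3.88, 2.09 and 3.61 against 2.72, 0.0470 and 2.77. Radial glia and floor plate markers (4 of 7 genes with a row, the member NTN1 included) summed to 19.9 to 49.1 TPM in the pectoral libraries and 12.1 to 26.2 TPM in the tail libraries. Single rows differed: FABP7a had TPM of 9.62, 41.1 and 37.85 against 8.12, 5.74 and 20.97. SOX2 had TPM of 2.85, 0 and 0.439 against 13.98, 5.985 and 0. The part of these markers in the results was not tested. No described row used here names any of the listed mesenchymal (16), endothelial (9), blood (7), skeletal muscle (11) or Schwann and neural crest (5) markers.

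**Figure D1:**
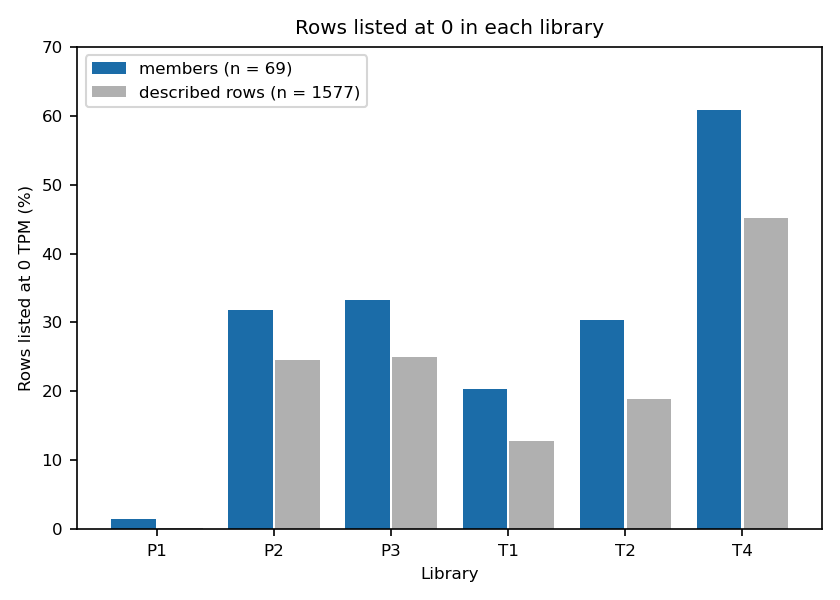
Share of rows listed at 0 TPM (y axis, percent) in each library (x axis, P for pectoral fin motor neurons and T for tail spinal cord cells), for the 69 members and the 1577 described rows. The members' share is 1.45% in pectoral replicate 1 and 60.9% in tail replicate 4, where that of the described rows is 45.2%.

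Of the 69 members, 33 reached 1 TPM in at least 3 of the 6 libraries and were tested, and 36 were too low. None of the 33 passed limma at an adjusted p under 0.05 over all 3752 tested rows, of which 0.0800% were called. Members can come from rows with a description only, and of the 936 tested rows with a description 0 were called. Unadjusted p-values under 0.05 were found for 3 members, against 7.04% of all tested rows. These were FZD7 and COL2A1 on the pectoral side (3.09% of all rows) and EFNB1 on the tail side (3.94%). FZD7 reached 1 TPM in pectoral libraries only and could be tested only by being higher there, so its p-value is no support. The unadjusted limma p was 0.033 for COL2A1, but 0.32 without pectoral replicate 2. For EFNB1 it was 0.030, but 0.14 without pectoral replicate 3. With library weights, again 0 members passed, where 0.693% of all rows were called. The fold changes given for single members are therefore descriptions of library values.

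In 4 tested members the ranges of the groups did not overlap. FZD7 and CNTFR were higher in every pectoral library, as were 4.18% of all tested rows. For FZD7 the filter fixed this in advance, since it reached 1 TPM in pectoral libraries only, as did 87 of all 3752 tested rows. EFNB1 and DBI were higher in every tail library, as were 7.60% of all tested rows. The 4 members of 33 stand beside 11.8% of all rows in either direction, a share near their own. Of the 36 members too low to test, 3 were higher in every pectoral library (MYDGF, PTPN2 and TRAF6) and 0 in every tail library. The matching share of all untested rows is not given, so these are not read as differences. A comparison without pectoral replicate 1 and tail replicate 4 was added after the data were seen. It separated 3 members upward in pectoral libraries (9.38% of all rows) and 9 upward in tail libraries (30.4% of all rows). Ranges of fewer libraries separate more readily, so these counts cannot be set against those of all 6 libraries.

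**Figure D2:**
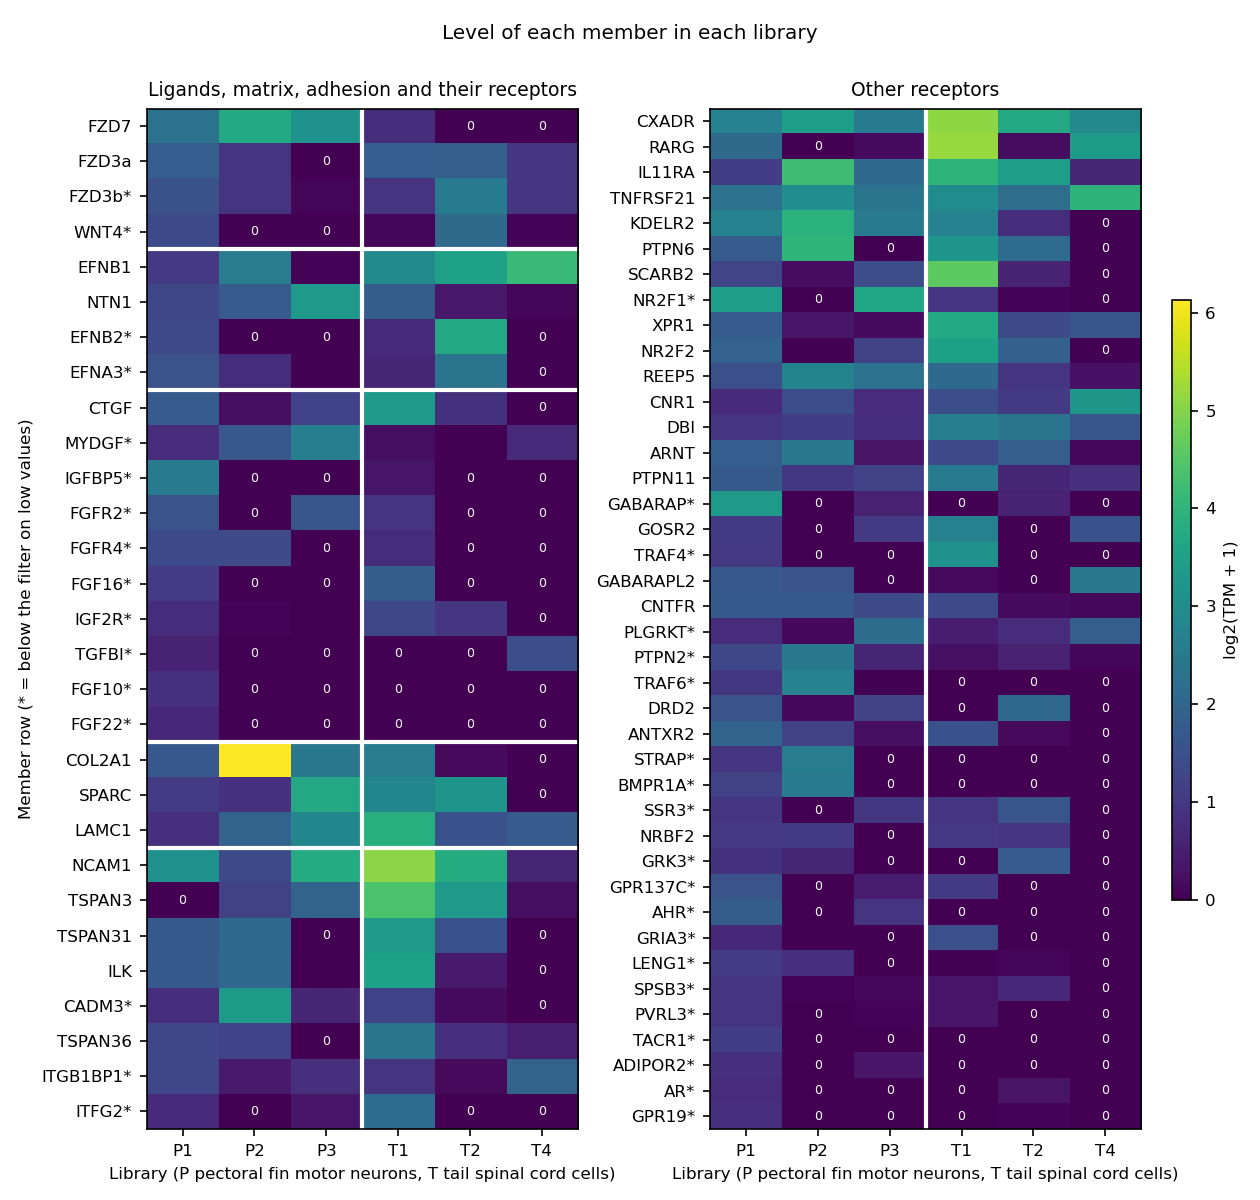
Level of each of the 69 members (rows, grouped by class) in each library (columns, P pectoral, T tail), as log2(TPM + 1). Rows below the filter on low values are starred. FZD7 is at 3.94 TPM or more in the pectoral libraries and at 0.732 TPM or less in the tail libraries.

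Among the Wnt members, the receptor FZD7 was the one with separate groups. Frizzled proteins are the membrane receptors of Wnt ligands. FZD7 had TPM of 3.94, 12.3 and 7.78 in the pectoral libraries and of 0.732, 0 and 0 in the tail libraries. Every pectoral library was above every tail library. The log2 fold change, here a difference of mean log2(TPM + 1), was 2.795 in limma (SE 1.01, adjusted p = 0.542), and this was the lowest adjusted p among the members. Its size depended on the pseudocount, with 5.18 for 0.1 TPM and 1.26 for 5 TPM. FZD7 reached 1 TPM in pectoral libraries only, so it could be tested only by being higher there. The filter thus fixed the separation of its groups in advance, which held for 1 of the 33 tested members.

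FZD3, a frizzled receptor known in mice for axon growth and guidance, has 2 rows from 1 Trinity gene. FZD3a had TPM of 2.55, 0.884 and 0 in the pectoral libraries and of 2.58, 2.59 and 0.956 in the tail libraries (limma log2 fold change -0.64, SE 0.89, adjusted p = 0.908). The FZD3a value was -0.18 without pectoral replicate 3 and -1.09 without pectoral replicate 1. FZD3b had TPM of 1.88, 0.884 and 0.0641 against 0.916, 4.79 and 0.956 and was too low to test. Both rows hold the same value in pectoral replicate 2 and in tail replicate 4, so they may share reads and are uncertain as separate genes. WNT4, known in rodents as a guidance cue for spinal commissural axons, was the 1 Wnt ligand with a row. It had TPM of 1.58, 0 and 0 against 0.0542, 3.32 and 0.0398, and exceeded 1 TPM in 1 library of each group. The groups thus overlapped for WNT4 and both FZD3 rows, and whether the FZD7 and FZD3 differences are unequal was not tested.

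The 4 guidance members were all ligands. Ephrins bind Eph receptors on neighbouring cells and steer axons, often by repulsion. EFNB1 had TPM of 1.01, 5.08 and 0.0485 in the pectoral libraries and of 6.52, 10.3 and 16.4 in the tail libraries. All tail libraries lay above the highest pectoral library. The log2 fold change was -2.29 in limma (SE 1.005, adjusted p = 0.624). Fits without 1 library gave -2.97 to -1.71.

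EFNB2, of the same ephrin class, had TPM of 1.54, 0 and 0 against 0.689, 12.1 and 0. EFNA3, a ligand held in the membrane by a lipid anchor, had TPM of 1.95, 0.732 and 0.0330 against 0.587, 4.11 and 0. Both were too low to test, were highest in tail replicate 2 and overlapped between the groups. NTN1, or netrin 1, is made by the floor plate and attracts commissural axons. NTN1 had TPM of 1.49, 2.41 and 8.73 in the pectoral libraries and of 2.51, 0.339 and 0.0578 in the tail libraries, where tail replicate 1 exceeded pectoral replicates 1 and 2 (limma log2 fold change 1.35, SE 0.9985, adjusted p = 0.868). The NTN1 value was 0.77 without pectoral replicate 3 and 1.87 without tail replicate 1. The floor plate ligand SHH has 2 rows, both too low to test. SHHa had TPM of 3.399, 0.931 and 1.09 against 0.945, 2.64e-08 and 0, with overlapping groups. SHHb had TPM of 1.52, 0.888 and 0.875 against 0.676, 0 and 0, without overlap. Both were highest in pectoral replicate 1, and NTN1 in pectoral replicate 3.

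Growth factors and their receptors were the class of lowest median, 0.639 for the mean TPM, and 1 of its 10 rows was tested. That row was CTGF, a secreted matricellular protein, with TPM of 2.44, 0.191 and 1.36 in the pectoral libraries and of 9.02, 0.858 and 0 in the tail libraries. The groups overlapped (limma log2 fold change -0.32, SE 0.96, adjusted p = 0.976), and the sign turned with median-ratio scaling, at 0.03. MYDGF, a secreted factor named for myeloid cells, was too low to test. It had TPM of 0.713, 2.16 and 5.14 against 0.172, 0.0122 and 0.680, and the groups did not overlap, although the lowest pectoral and the highest tail value lay close. IGFBP5, which binds insulin-like growth factors, was at 4.701 TPM in pectoral replicate 1, at 0.262 TPM in tail replicate 1 and at 0 in the other 4 libraries.

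Fibroblast growth factors act through receptor tyrosine kinases, of which 2 have a row. FGFR2 had TPM of 1.96, 0 and 2.02 against 0.927, 0 and 0. FGFR4 had TPM of 1.62, 1.64 and 0 against 0.738, 0 and 0. Each was above 1 TPM in 2 pectoral libraries and in no tail library, but each was at 0 in 1 pectoral library, so the groups overlapped. Among the ligands, FGF16 was at 1.13 TPM in pectoral replicate 1 and 2.53 TPM in tail replicate 1 and at 0 elsewhere. FGF10, known for limb bud outgrowth, was at 0.820 TPM in pectoral replicate 1 and at 0 elsewhere, and FGF22, known in mice for organizing synapses, was at 0.606 TPM in the same library and at 0 elsewhere. IGF2R, which sorts lysosomal enzymes and clears insulin-like growth factor 2, had TPM of 0.756, 0.0432 and 0.0166 against 1.45, 0.950 and 0. TGFBI, a secreted matrix protein, was at 0.506 TPM in pectoral replicate 1 and 1.77 TPM in tail replicate 4.

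All 3 rows of the extracellular matrix class were tested. COL2A1, the fibrillar collagen of cartilage and notochord, had the highest mean of all members. COL2A1 had TPM of 2.22, 69.03 and 4.49 in the pectoral libraries and of 4.91, 0.109 and 0 in the tail libraries. Pectoral replicate 2 was far above the other 5 libraries, and the groups overlapped. The log2 fold change was 2.52 in limma (SE 1.13, adjusted p = 0.639), and 1.17 without that library. The other cartilage and notochord markers with a row were not highest there. SOX9a had TPM of 2.14, 0.382 and 0.134 against 6.95, 19.4 and 0, and SOX9b of 2.16, 0.660 and 0.270 against 7.15, 0.297 and 0. SHH is on this list too, and its rows were highest in pectoral replicate 1. SHHa had TPM of 3.399, 0.931 and 1.09 against 0.945, 2.64e-08 and 0, with overlap. SHHb had TPM of 1.52, 0.888 and 0.875 against 0.676, 0 and 0, without overlap. The summed level of these markers (3 of 8 genes with a row, COL2A1 included) was 6.86 to 71.9 TPM in the pectoral libraries and 0 to 20.6 TPM in the tail libraries, and its part in the COL2A1 difference was not tested.

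SPARC, a matricellular protein that binds collagen, had TPM of 1.14, 0.832 and 11.96 against 6.03, 8.09 and 0 (limma log2 fold change -0.11, SE 1.099, adjusted p = 0.996), and its sign turned with median-ratio scaling, at 0.27. LAMC1, a chain of the basement membrane protein laminin, had TPM of 0.784, 2.87 and 6.12 against 13.7, 1.91 and 2.37 (limma log2 fold change -0.52, SE 1.03, adjusted p = 0.937). Its sign turned without tail replicate 1, at 0.23, and the value was near 0 without pectoral replicate 1. The highest library differed between the matrix rows: pectoral replicate 2 for COL2A1, pectoral replicate 3 for SPARC and tail replicate 1 for LAMC1.

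Of the 8 adhesion members, 5 were tested and all 5 fold changes were negative, as were 2120 of all 3752 tested rows. The median was -0.39, but 0.5038 without tail replicate 1 and 0.03 without pectoral replicate 3. TSPAN3 is a tetraspanin, one of the membrane proteins that gather others into microdomains. It had TPM of 0, 1.31 and 2.90 in the pectoral libraries and of 20.0, 8.72 and 0.165 in the tail libraries, and was the 1 member at 0 in pectoral replicate 1. The groups overlapped through tail replicate 4 (limma log2 fold change -1.58, SE 1.11, adjusted p = 0.861). The value was -0.69 without tail replicate 1 but -2.78 when tail replicate 4 was left out.

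NCAM1, a homophilic adhesion molecule of neurons, had TPM of 7.52, 1.61 and 12.6 in the pectoral libraries and of 32.3, 12.8 and 0.555 in the tail libraries. The tail libraries held both the highest and the lowest value (limma log2 fold change -0.42, SE 1.06, adjusted p = 0.964), and the sign turned without tail replicate 1, at 0.53. TSPAN31 had TPM of 2.34, 3.301 and 0 against 8.897, 1.94 and 0 (limma log2 fold change -0.34, SE 1.04, adjusted p = 0.977), with 0.02 under median-ratio scaling. ILK, a cytoplasmic partner of integrins, and the tetraspanin TSPAN36 had log2 fold changes of -0.05 and -0.39. Each of the 5 tested adhesion rows was highest in tail replicate 1, the library with the highest TPM sum over all rows (74220 TPM). The matching share over all tested rows is not given, and the part of this total in the fold changes was not tested.

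The other 3 adhesion rows were too low to test. CADM3, an immunoglobulin-type adhesion molecule of neurons, had TPM of 0.744, 9.202 and 0.590 against 1.36, 0.135 and 0. An undescribed row of its Trinity gene, TRINITY_DN17698_c7_g3_i4, had TPM of 6.804, 14.2 and 0 against 2.55, 0.307 and 0.704. Both rows were highest in pectoral replicate 2. The undescribed row passed the filter but is no member, so it is not among the 5 tested adhesion rows with negative fold changes. Another undescribed row, TRINITY_DN17698_c7_g3_i2, was too low to test, with TPM of 0.409, 0 and 1.57 against 0.905, 0.0451 and 0. ITGB1BP1, which binds the inner end of an integrin, had TPM of 1.46, 0.360 and 0.762 against 0.892, 0.106 and 2.88. ITFG2, which shares a repeat with integrins but is not an integrin chain, was highest in tail replicate 1, at 3.43 TPM.

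**Figure D3:**
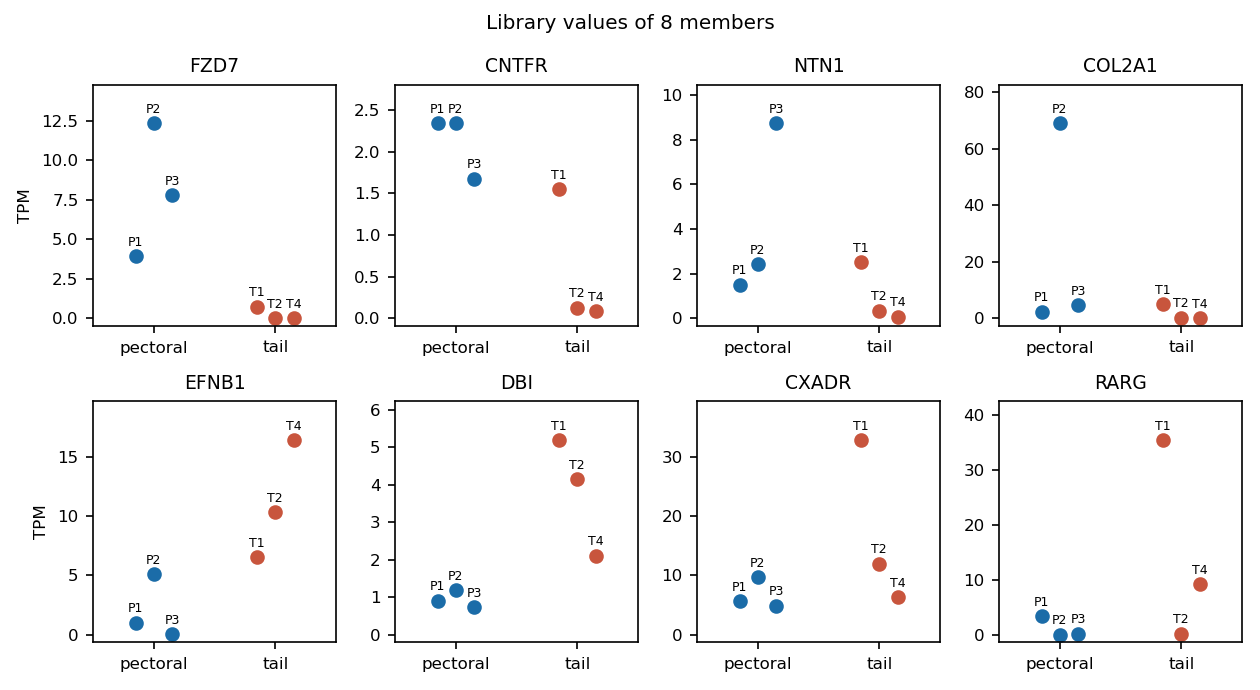
TPM (y axis, linear, a separate scale for each panel) of 8 members in the 3 pectoral and 3 tail libraries (points, labelled by library). The groups are separate for FZD7, CNTFR, EFNB1 and DBI and overlap for the other panels. For FZD7 the filter on low values fixed this in advance.

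The remaining 40 members carry the word receptor. Of these, 20 were tested, with 9 positive and 11 negative fold changes. CNTFR binds ciliary neurotrophic factor and is known for motor neuron survival. It had TPM of 2.34, 2.34 and 1.68 in the pectoral libraries and of 1.55, 0.127 and 0.0866 in the tail libraries. The groups did not overlap, although pectoral replicate 3 and tail replicate 1 lay close. Means were 2.12 ± 0.384 and 0.589 ± 0.836 TPM (SD, n = 3 each), with a log2 fold change of 1.09 in limma (SE 0.7989, adjusted p = 0.868).

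IL11RA, the interleukin 11 receptor chain, signals through the same shared subunit as the receptor of ciliary neurotrophic factor. It had TPM of 1.16, 17.6 and 3.27 against 14.95, 9.56 and 0.587, with overlapping groups (limma log2 fold change -0.21, SE 1.07, adjusted p = 0.984), and its sign turned with median-ratio scaling, at 0.18. TNFRSF21, a death receptor known in mice for axon pruning, had TPM of 3.89, 6.99 and 4.14 against 6.96, 3.58 and 14.6. TNFRSF21 and CXADR were the members above 3 TPM in all 6 libraries.

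CXADR, an adhesion protein of cell junctions named for the viruses that use it, had TPM of 5.63, 9.698 and 4.89 in the pectoral libraries and of 32.8, 11.98 and 6.35 in the tail libraries. Pectoral replicate 2 was above tail replicate 4, so the groups overlapped (limma log2 fold change -0.98, SE 0.92, adjusted p = 0.894). Leaving out tail replicate 1 gave -0.39 for CXADR, and leaving out tail replicate 4 gave -1.49. XPR1, a phosphate exporter named for a retrovirus, had TPM of 2.42, 0.292 and 0.127 against 12.4, 1.62 and 2.01, a log2 fold change of -1.47. CNR1, a cannabinoid receptor of nerve terminals, had TPM of 0.698, 1.76 and 0.705 against 1.79, 1.06 and 8.54. It was highest in tail replicate 4, in which 42 members were at 0.

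Among receptors for other transmitters, DRD2, a dopamine receptor, had TPM of 1.96, 0.0955 and 1.27 against 0, 3.198 and 0 (log2 fold change 0.27). GRIA3, a subunit of AMPA-type glutamate receptors, had TPM of 0.598, 0.0276 and 0 against 1.83, 0 and 0. Of 3 undescribed rows of its Trinity gene, TRINITY_DN18010_c3_g3_i1 was the highest, with TPM of 2.46, 0.614 and 0.945 against 0.7999, 2.13 and 0, and all 4 may split reads. TACR1, a receptor of substance P, was at 1.199 TPM in pectoral replicate 1 and at 0 elsewhere. DBI is no receptor: it binds acyl-CoA, and peptides cut from it act on GABA receptors. DBI had TPM of 0.906, 1.18 and 0.739 in the pectoral libraries and of 5.201, 4.16 and 2.11 in the tail libraries. Every tail library was above every pectoral library, with means of 0.943 ± 0.225 and 3.82 ± 1.57 TPM (SD, n = 3 each) for pectoral and tail (limma log2 fold change -1.26, SE 0.99, adjusted p = 0.868).

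Of the 5 nuclear receptors, 2 were tested. RARG, which binds retinoic acid, had TPM of 3.33, 0 and 0.133 in the pectoral libraries and of 35.4, 0.147 and 9.18 in the tail libraries. It was highest in tail replicate 1, and the groups overlapped through tail replicate 2. The log2 fold change was -2.15 in limma (SE 1.15, adjusted p = 0.756). Leaving out tail replicate 1 gave -1.01, leaving out tail replicate 2 gave -3.502, and library weights gave -0.29.

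NR2F1 and NR2F2, orphan receptors also called COUP transcription factors, are described for contigs of 1 Trinity gene. NR2F1 had TPM of 9.57, 0 and 11.3 against 0.930, 0.0448 and 0 and reached 1 TPM in 2 libraries, so it was not tested. NR2F2 had TPM of 2.797, 0.0273 and 1.33 against 9.99, 2.699 and 0 (limma log2 fold change -0.72, SE 1.03, adjusted p = 0.908). The NR2F1 row was the higher of the pair in pectoral replicates 1 and 3, and the NR2F2 row in tail replicates 1 and 2. Contigs of 1 gene can split reads, so both levels are uncertain. AHR, a receptor of aromatic compounds, had TPM of 2.52, 0 and 0.902 in the pectoral libraries and was at 0 in the tail libraries. Its partner ARNT had TPM of 2.58, 4.57 and 0.242 against 1.603, 2.63 and 0.103.

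Among receptors of intracellular transport, KDELR2 returns escaped chaperones to the endoplasmic reticulum. It had TPM of 5.49, 14.2 and 4.75 against 5.56, 0.745 and 0, and tail replicate 1 lay within the pectoral range (limma log2 fold change 1.88, SE 1.03, adjusted p = 0.792). REEP5, grouped here as a receptor accessory protein, shapes tubules of the endoplasmic reticulum. It had TPM of 1.83, 5.83 and 3.86 against 3.28, 0.921 and 0.222, with overlap through the same library. SCARB2, a lysosomal membrane protein, had TPM of 1.44, 0.148 and 1.75 against 23.03, 0.526 and 0, so tail replicate 1 stood above the other 5 libraries.

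Of the 15 adaptors and intracellular partners, 6 were tested, with log2 fold changes between -0.05 and 0.42. PTPN11, a phosphatase that relays receptor tyrosine kinase signals, had a pectoral mean of 1.54 ± 0.710 TPM and a tail mean of 2.06 ± 2.39 TPM (SD, n = 3 each). PTPN6, a related phosphatase, had TPM of 2.42, 15.2 and 0 against 8.34, 3.399 and 0. PTPN2, too low to test, had TPM of 1.53, 4.56 and 0.564 against 0.215, 0.477 and 0.0624, without overlap. GABARAP, an autophagy protein named for its binding to GABA receptors, was highest in pectoral replicate 1, at 8.87 TPM, and at 0.518 TPM or lower elsewhere.

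In all 3 tail libraries, 8 of 69 members were at 0, or 11.6%, beside 5.77% of the described rows. BMPR1A, a receptor of bone morphogenetic proteins, had TPM of 1.32, 4.62 and 0 in the pectoral libraries. STRAP, which binds receptors of the TGF-beta family, had TPM of 0.937, 5.07 and 0 there, and TRAF6, an adaptor of the TNF receptor family, had TPM of 0.981, 5.53 and 0.0332. BMPR1A, STRAP and TRAF6 were highest in pectoral replicate 2. The others, AHR, ADIPOR2, FGF10, FGF22 and TACR1, were highest in pectoral replicate 1. No member was at 0 in all 3 pectoral libraries, but 68 of 69 members were above 0 in pectoral replicate 1. How rows were chosen for the table is not stated, and 5 of all 7080 rows were at 0 in that library. A choice that leaned on that library could affect both counts in advance, and this was not tested. Of the 8, the 3 members FGF10, FGF22 and TACR1 were above 0 in that library alone. The 8 and 0 are therefore not read as a difference between the groups.

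The classes were set side by side by the median log2 fold change of their tested rows, with no test. It was 1.08 for Wnt (2 rows), -0.47 for guidance (2), -0.32 for growth factors (1), -0.11 for matrix (3), -0.39 for adhesion (5) and -0.12 for the other receptors (20). Over all 33 members it was -0.32, with 12 positive and 21 negative, and over all tested rows -0.18. The Wnt value rests on FZD7, which could enter the test only by being higher in pectoral libraries: the median was -0.46 with no filter and -0.64 with a filter on the mean, so no direction is given for the class. Single genes set the medians of the small classes, since FZD7 and FZD3a lay on opposite sides of 0, as did NTN1 and EFNB1. Median-ratio scaling moved the median of all rows to 0.08 and that of the members to 0.03, with 18 of 33 positive. Without tail replicate 1 the members' median was 0.2975 (all rows 0.17), and without tail replicate 4 it was -0.75 (all rows -0.44).

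**Figure D4:**
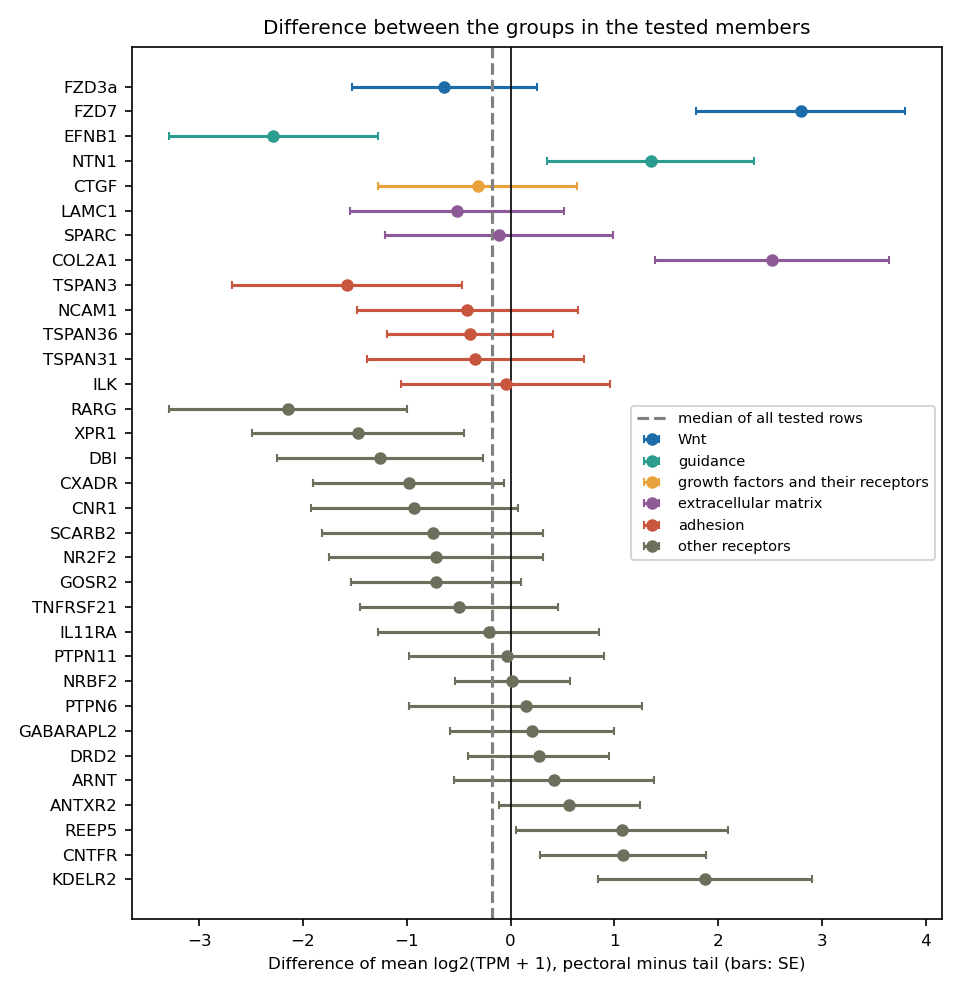
Difference of mean log2(TPM + 1), pectoral minus tail (x axis), with its SE, for each of the 33 tested members (y axis), coloured by class, and the median of all tested rows (dashed, -0.18). FZD7, at 2.795, and EFNB1, at -2.29, lie at the ends, and none of the 33 passed limma at an adjusted p under 0.05.

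The pathways were also read from 7 word lists, which hold members as well as other described genes. In either direction, 0 rows of any list passed the threshold, as did 0 of all 936 tested rows with a description. The Wnt list had 6 rows, of which 4 were tested and 2 were not members. GSK3B, the kinase that marks beta-catenin for breakdown, had a pectoral mean of 9.16 ± 5.69 TPM and a tail mean of 9.69 ± 5.77 TPM (SD, n = 3 each, log2 fold change -0.03). CTNNA1, alpha-catenin of cell junctions, had TPM of 0.960, 24.4 and 0.841 against 39.8, 1.44 and 0 (log2 fold change -0.04). The groups overlapped for both. FZD7 is not set against them here, since the filter fixed its separation in advance.

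The TGF-beta and BMP list had 6 rows, of which 3 were tested and 4 were not members. ID4, a helix-loop-helix inhibitor that bone morphogenetic proteins induce, had TPM of 72.6, 30.2 and 76.9 in the pectoral libraries and of 14.4, 22.4 and 0.309 in the tail libraries. Every pectoral library was above every tail library (limma log2 fold change 2.86, SE 0.94, adjusted p = 0.487). FST, the activin-binding protein follistatin, had means of 5.57 ± 1.52 and 8.98 ± 5.13 TPM (SD, n = 3 each), and its groups overlapped. Of 11 rows of the receptor tyrosine kinase list, 4 were not members, and 3 of these were tested, with positive fold changes and overlapping groups. Over all tested rows, 43.5% were positive. None of the 3 is a receptor, and FGFR2 and FGFR4 were too low to test, so these signs do not speak for the receptors. CSK, a kinase that restrains Src, had means of 35.4 ± 30.7 and 17.4 ± 7.48 TPM, and YES1, a kinase of the Src family, 1.899 ± 1.69 and 1.29 ± 0.222 TPM (SD, n = 3 each). SPRY1, a feedback inhibitor of fibroblast growth factor signalling, had TPM of 1.96, 0.605 and 4.18 against 1.44, 0.0396 and 0.

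In the matrix list, 4 of 6 rows were tested and 3 were not members. MMP2, a protease that cuts matrix proteins, had TPM of 1.26, 1.18 and 13.6 in the pectoral libraries and of 0.340, 0.0641 and 0 in the tail libraries, without overlap (limma log2 fold change 1.89, SE 0.86, adjusted p = 0.647). Like FZD7, it reached 1 TPM in pectoral libraries only, so the filter fixed its separation in advance. TNR, the neural matrix protein tenascin R, was too low to test and highest in tail replicate 1, at 2.66 TPM. Of 3 hedgehog rows, none of them members, PTCHD4 was tested (log2 fold change 0.09), and both SHH rows were too low. The list of retinoic acid and nuclear receptor genes had 4 tested rows with a median of -0.88, and 3 of them are the members RARG, NR2F2 and NRBF2. The other, ALDH1A2, which makes retinoic acid, had TPM of 1.199, 1.51 and 0 against 14.9, 2.004 and 0 (log2 fold change -1.04). The Notch list held 1 row, no member, PSEN2, a presenilin of the gamma-secretase complex, at 0.978 TPM in pectoral replicate 1 and at 0.0778 TPM or lower elsewhere.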

How the data were processed

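The authors deposited a table of TPM with 1 column per library, per the file headers. Trimmomatic 0.33, Salmon 0.8.2 and edgeR 3.18.1 appear in the submitters' processing notes, with no role given. Rows are Trinity contigs, most without a description. The build, the assembled reads and the way of assigning proteins are not given here. TPM keep no read depth, so no counting interval was possible.

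Of 7081 rows, 1 exact repeat was removed. Symbols were assigned by hand from the descriptions and name a protein match, not a verified skate gene, and 0 accessions matched the skate RefSeq table. Groups were compared with limma 3.58.1 (R 4.3.3, two-sided, trended empirical Bayes) on log2(TPM + 1). Rows needed at least 1 TPM in 3 or more libraries, which left 3752, and p-values were adjusted by Benjamini-Hochberg over these. A fold change is pectoral minus tail on this scale and understates the change of low rows. Where a library was at 0, library values replace a mean.

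Classes follow words of the description, the first match winning. Members and lists were chosen with earlier results of these data known. Named by rule were tested members with separate groups, the 3 members of highest mean TPM in each class and 2 other rows per pathway list. Other members, and SPRY1 and SHHb, were singled out after their values were seen. In the Wnt list, axin was matched at a word's start because syntaxins had matched. Alternatives were other pseudocounts, filters and scalings, library weights, a replicate block and leaving out libraries.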

Additional observations from a re-analysis of the deposited data

How the results depend on the processing

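Under every alternative run, 0 members and 0 rows of the 7 pathway lists passed. Over all rows, 2 were called higher in pectoral and 1 in tail libraries. These counts became 1 and 0 with a pseudocount of 0.1, with median-ratio scaling and with the replicate block, 11 and 15 with library weights, and 0 and 0 when both pectoral replicate 1 and tail replicate 4 were left out. A pseudocount of 5 gave 1 pectoral call and quantile normalization 0 tail calls. Leaving out 1 library gave 1 to 3 pectoral and 0 to 2 tail calls. The groups share the numbers 1 and 2, but same-numbered libraries did not deviate together (r of -0.03 and -0.003 across rows), so the numbers were not taken as pairs. With the replicate block the median of the matrix class was -1.31, and the values of TSPAN3, NTN1 and EFNB1 were -3.23, 0.43 and -1.402. Pectoral replicate 3 and tail replicate 4 have no partner of the same number. The differences under the replicate block therefore rest on replicates 1 and 2 of each group alone. The Wnt median was 1.78 for a pseudocount of 0.1 and 0.53 for 5, -0.46 with no filter and -0.64 with a filter on the mean, the last 2 with more low rows in it. Leaving out pectoral replicate 1 and tail replicate 4 left 9 of 33 tested members separate upward in tail libraries, beside 30.4% of all tested rows. With all 6 libraries it was 2, beside 7.60%. Upward in pectoral libraries the counts were 3 (9.38% of all rows) and 2 (4.18%). Ranges of fewer libraries separate more readily, so the higher counts are not read as differences uncovered by leaving libraries out. Signs turned for CTGF (0.1005 with a pseudocount of 0.1, 0.0295 with median-ratio scaling, 0.0927 with library weights), SPARC (0.49 with a pseudocount of 0.1, 0.27 with median-ratio scaling), IL11RA (0.18 with median-ratio scaling) and TSPAN31 (0.0166 with median-ratio scaling). Without 1 library, the log2 fold change ranged for CTGF from -1.02 to 0.64, for IL11RA from -1.22 to 0.47, for LAMC1 from -0.996 to 0.23, for NCAM1 from -1.68 to 0.53, for SPARC from -1.11 to 0.48 and for TSPAN31 from -1.15 to 0.50. The cause of these turns was not tested. Depth is unknown, and values near 0 TPM limit the low rows.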
